A study of Mus musculus with 2 samples.

Results

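The transcription factors that set venous and lymphatic identity were followed in single cells of the mouse mesentery. The set holds 9 genes, Prox1, Nr2f2, Gata2, Foxc1, Foxc2, Nfatc1, Hhex, Tbx1 and Foxp2, taken by symbol from the 28692 genes of the files. The list was drawn up with earlier results of these data known. All 9 were found and all 9 had counts. CD31+ cells were captured with magnetic beads from the mesentery at postnatal day 8 (P8) and sequenced as 1 droplet library of the control genotype and 1 library of the genotype labelled KO, each pooled from 3 mice on a C57BL/6 background. The KO mice carried Flcn flox/flox and Cdh5-BAC-CreERT2, a tamoxifen-inducible Cre driven by the Cdh5 promoter, which is active in blood and lymphatic endothelium alike; they are called Flcn iΔEC below. In the inducible neonatal design 4-hydroxytamoxifen was given under the skin in 4 doses of 40 µg, the first at P2, then at P3.5 and P5, and the last at P6.5; the labels do not give the control mice's Cre status. With 1 pooled library per genotype there is no spread between animals, so no test between genotypes was possible. The intervals below are exact 95% intervals that cover counting error only.

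Lymphatic vessels first arise in the embryo from veins. Endothelial cells of the cardinal vein that express the nuclear receptor Nr2f2 (COUP-TFII) switch on the homeobox factor Prox1, which is needed to acquire and to keep lymphatic identity, while arterial cells lack both. Gata2, Foxc1, Foxc2 and Nfatc1 then take part in the building of lymphatic and venous valves, Hhex is an early endothelial homeobox factor reported upstream of Prox1, and Tbx1 and Foxp2 are enriched in lymphatic endothelium. Folliculin, the product of Flcn, holds back the transcription factor TFE3, and the question put to these cells is whether venous endothelium without Flcn takes on Prox1.

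The bases just before the start of Prox1 and of Nr2f2 are shown because these are the factors that define the lymphatic and the venous state. Both are RefSeq promoter entries on mouse build GRCm38, printed 5′ to 3′ on the minus strand up to the base before the start, with every match to CANNTG, the E-box pattern read by basic helix-loop-helix factors such as TFE3, in capitals.
Prox1, chr1:190170828-190171077: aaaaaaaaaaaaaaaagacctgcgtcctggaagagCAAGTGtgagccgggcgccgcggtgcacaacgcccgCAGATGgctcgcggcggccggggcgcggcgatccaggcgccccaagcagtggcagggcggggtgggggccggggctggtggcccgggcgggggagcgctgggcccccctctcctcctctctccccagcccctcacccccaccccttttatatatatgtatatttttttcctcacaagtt
Nr2f2, chr7:70366747-70366996: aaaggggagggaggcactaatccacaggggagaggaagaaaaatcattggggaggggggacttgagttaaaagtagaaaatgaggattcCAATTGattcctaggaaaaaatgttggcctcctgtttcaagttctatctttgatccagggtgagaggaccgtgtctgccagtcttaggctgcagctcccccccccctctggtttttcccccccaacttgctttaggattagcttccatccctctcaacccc
In the Prox1 window CAAGTG began 215 bases and CAGATG 179 bases before the start, and in the Nr2f2 window CAATTG began 161 bases before it. Prox1 has a second entry, chr1:190169516-190169765, which held 0 matches to CANNTG. Entries were present for 6 of the 9 members, 9 entries in all, and the members without one are Foxc2, Nfatc1 and Foxp2. Both strands of the same 250 bases were searched in every entry. CACGTG, a full match to the motif best known for TFE3 and its relatives, was in 0 of the 9 entries and in 6.02% of all 32851 promoters. CATGTG was in 1 of the 9, a Tbx1 entry, and in 12.3% of all promoters. CANNTG, which includes both, was in 3 of the 9 and in 66.2% of all. These are letter matches in short windows, and no binding was measured here.

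The libraries held 6814 control and 4459 Flcn iΔEC cells, with 64639756 and 60805779 UMIs (unique molecular identifiers, which count each captured RNA molecule once) and medians of 7283 and 8587 UMIs a cell. Endothelial cells were taken as those with at least 2 UMIs of Cdh5, the VE-cadherin gene, which gave 566 control cells (8.31%) and 892 Flcn iΔEC cells (20.004%), with medians of 16127 and 24415 UMIs. Only 6 cell barcodes occurred in both libraries, and of these 0 control and 2 Flcn iΔEC barcodes were endothelial. Among endothelial cells 7 and 3 were called doublets, and they were kept. The libraries also differed in sex: the control cells held 9 UMIs of Xist and 15535 of 4 Y-linked genes, and the Flcn iΔEC cells 63462 and 17. Sex, genotype and library therefore cannot be told apart in any value that follows. Flcn itself stood at 10.2 CPM (counts per 1e6 UMIs; interval 8.64 to 12.1) and 9.74 CPM (8.602 to 10.985) in endothelial cells. A 3′ library counts the end of a transcript and does not check the loss of an inner exon, so these counts do not check the deletion.

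Each endothelial cell was placed by the highest of its mean scores over fixed marker lists that hold none of the 9 factors. This gave 66 control and 327 Flcn iΔEC lymphatic-like cells, 61 and 125 venous-like, 83 and 97 arterial-like, 108 and 45 capillary-like, and 29 and 46 high endothelial-like cells. A further 99 and 144 cells had 2 top scores within 0.25 of each other and stayed unassigned, and the rest scored highest for blood or mesenchymal markers. A class here is a range of a score and not a sharp type: 30 of the 61 and 35 of the 125 venous-like cells had a gap to the next score of under 0.5, as had 26 of the 66 and 28 of the 327 lymphatic-like cells. The median UMI count was 22685 and 25951 in venous-like and 16343 and 24245 in lymphatic-like cells.

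The classes were placed by these same lists, so a high level of a class's own markers was fixed in advance. The levels are given to show how far markers of other classes were present. In venous-like cells the 8 venous markers summed to a median of 4354 CPM per control cell and 2291 CPM per Flcn iΔEC cell, against 132 and 220 CPM for the 8 lymphatic markers, of which Pdpn was at 0 in both libraries. Arterial markers had medians of 2091 and 1489 CPM there, so venous-like cells were not free of them. In lymphatic-like cells the lymphatic markers had medians of 4293 and 5699 CPM and the venous markers 376 and 301 CPM. Arterial-like cells had 7567 and 6957 CPM of arterial markers, and capillary-like cells 4337 and 4643 CPM of capillary markers. The high endothelial-like cells carried their defining Glycam1 (21860 and 6152 CPM) and Madcam1 (1425 and 1142 CPM), but also a median of 2850 and 4171 CPM of lymphatic markers, nearly all from the chemokine Ccl21a, and 501 and 850 CPM of blood markers. Values of that class are therefore given with this limit.

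Prox1 (ENSMUSG00000010175, chr1:190118035-190170714) was by far most abundant in lymphatic-like cells, and the distance to venous-like cells was much shorter in the Flcn iΔEC library. In lymphatic-like cells it stood at 670 CPM (629 to 713) in the control and at 436 CPM (422 to 449) in the Flcn iΔEC library. In venous-like cells it stood at 43.2 CPM (33.8 to 54.4) and at 159 CPM (147 to 172). Capillary-like cells had 32.0 and 49.5 CPM, high endothelial-like cells 7.34 and 33.4 CPM, and arterial-like cells, the background of this gene, 2.01 and 2.72 CPM. The lymphatic-like level was thus 15.5 times the venous-like level in the control (12.2 to 19.99) and 2.73 times in the Flcn iΔEC library (2.51 to 2.98). In the control order the neighbours venous and capillary overlapped, as did high endothelial and arterial. In the Flcn iΔEC order venous-like cells lay apart from the classes above and below them, and capillary and high endothelial overlapped.

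Between the libraries Prox1 went opposite ways in the classes at the top of this order. In venous-like cells the Flcn iΔEC level was 3.69 times the control level (2.89 to 4.78), and in lymphatic-like cells 0.650 times (0.606 to 0.698). The venous-like ratio stayed above 1 under each of 15 other ways of choosing and weighing the cells, although with a score margin of 0.5 it was 0.96 on the log2 scale in place of 1.88. The cells compared clustered apart by library: of the venous clusters of a Leiden grouping, 1 held 59 control and 0 Flcn iΔEC cells and the other 1 control and 126 Flcn iΔEC cells. The lymphatic-like ratio did not keep its direction: with classes taken from the Leiden clusters it was 0.13 on the log2 scale in place of −0.62. The lymphatic clusters of that grouping held 130 control and 348 Flcn iΔEC cells. They include a cluster of 50 and 55 cells whose mean lymphatic score was only 0.064, with 88.2 and 350 CPM of Prox1. In the other 3 lymphatic clusters with cells of both libraries Prox1 was lower in the Flcn iΔEC cells, at 524 and 459 CPM, 615 and 395 CPM, and 1273 and 601 CPM.

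**Figure D1:**
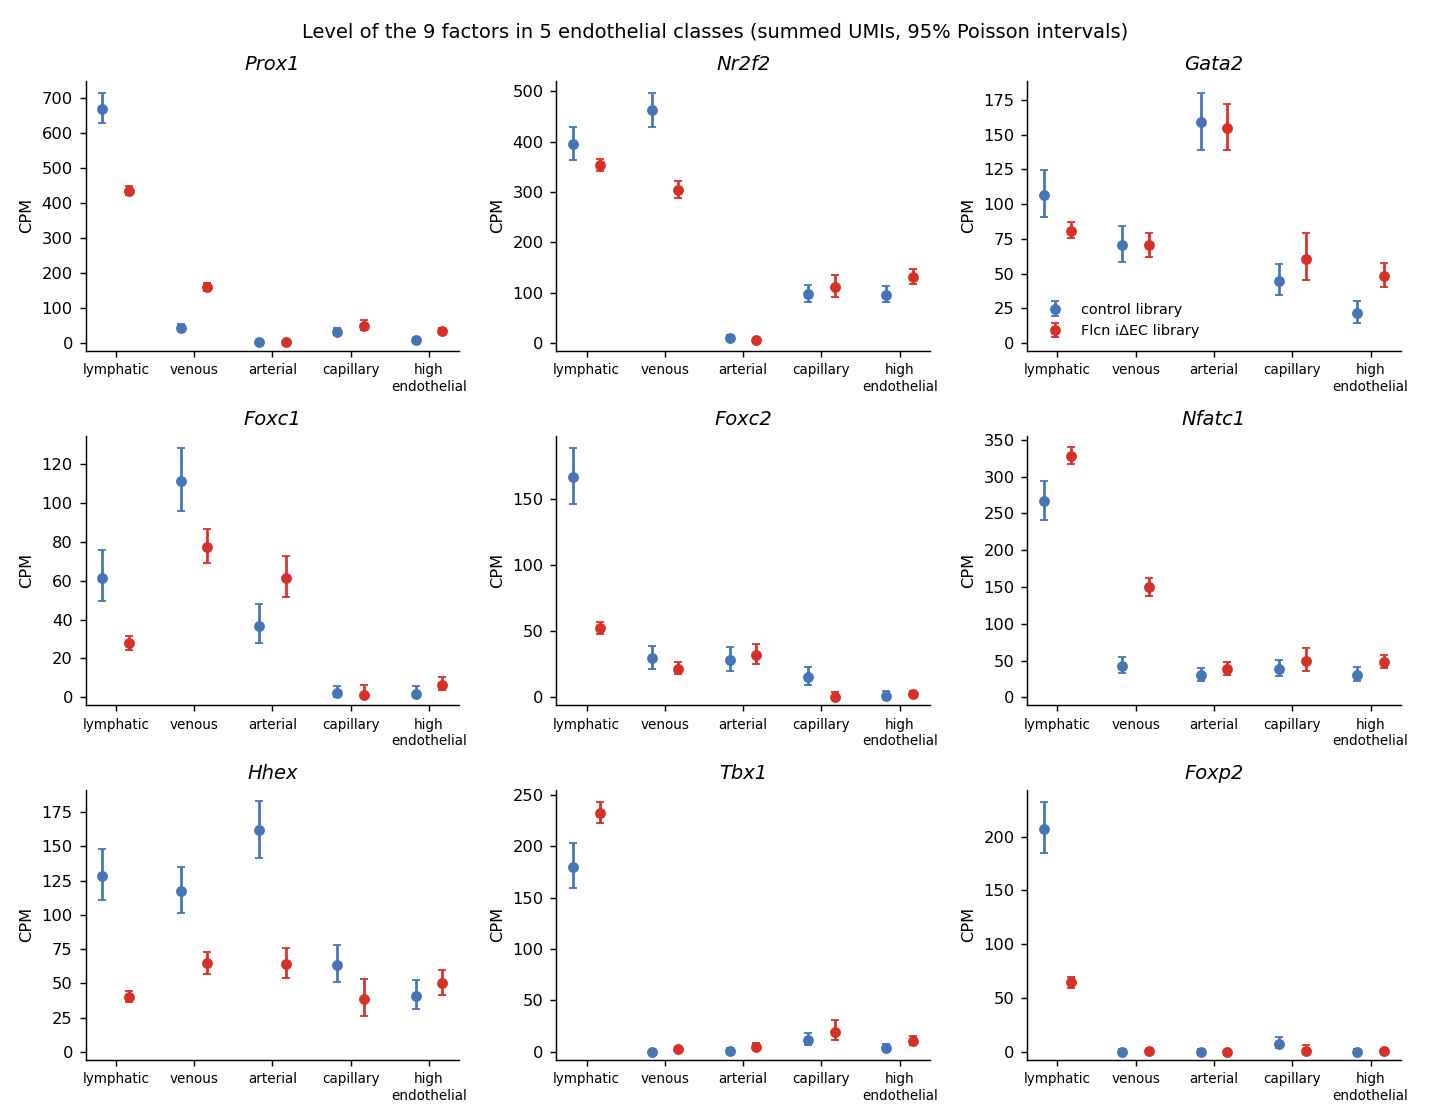
Summed level of each of the 9 factors in the 5 endothelial classes, in CPM on a linear axis, with control and Flcn iΔEC libraries side by side and exact 95% counting intervals as bars. Prox1 in venous-like cells moves from 43.2 CPM in the control to 159 CPM, while Tbx1 and Foxp2 stay at 2.50 CPM or under in venous-like cells of both libraries.

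Seen cell by cell, the extra Prox1 sat in part of the venous-like cells. The median venous-like cell had 20.1 CPM in the control and 38.7 CPM in the Flcn iΔEC library, the 90th percentile was 116 and 375 CPM, and the highest cell 209 and 1412 CPM. The medians lie close together, and the libraries part at the top of the range. At least 100 CPM with at least 2 UMIs was reached by 7 of 61 control cells (11.5%, 4.74 to 22.2). It was reached by 35 of 125 Flcn iΔEC cells (28.0%, 20.3 to 36.7). These intervals overlap, and 2 UMIs are easier to reach in deeper cells. The threshold falls in a continuous range, with 35 Flcn iΔEC cells between 50 and 200 CPM. In each library 9 cells, those with most Prox1 UMIs, held 50% of the class's total. Without the 3 cells of most UMIs the class levels were 35.2 and 123 CPM, so the difference did not rest on 3 cells. In lymphatic-like cells the spread had the other form: medians of 494 and 367 CPM, with 92.4% and 91.1% of cells at 100 CPM or more with at least 2 UMIs.

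**Figure D2:**
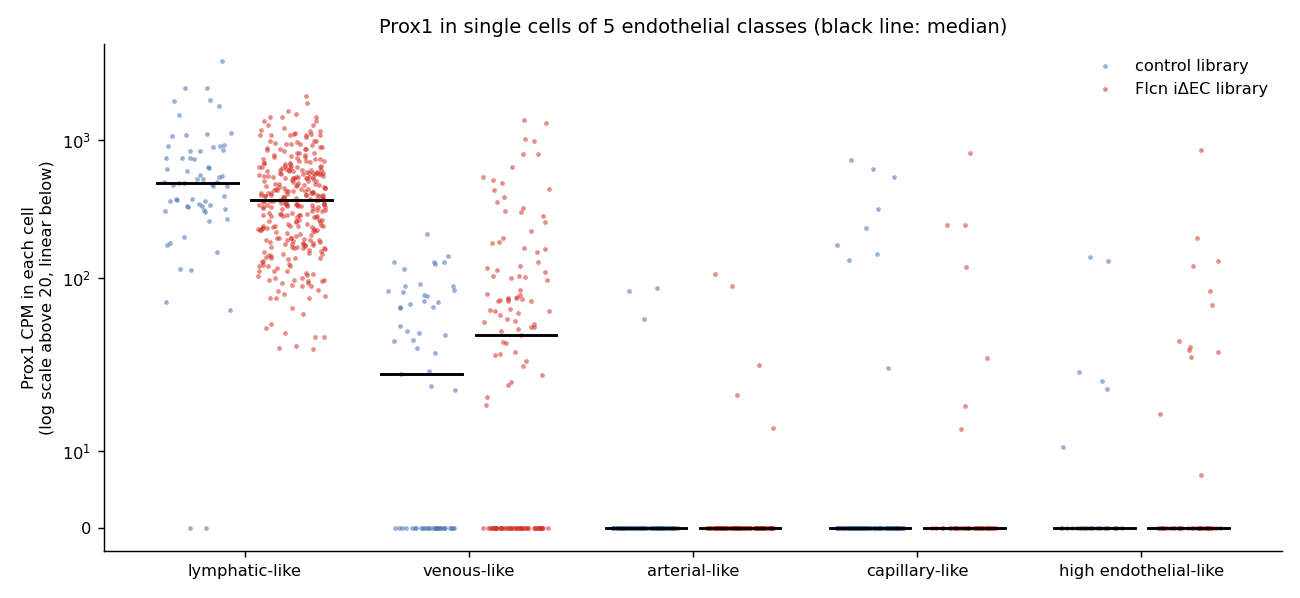
Prox1 per cell in CPM, 1 point a cell, for each class and library. Venous-like cells of the Flcn iΔEC library reach 1412 CPM and those of the control 209 CPM, while the class medians are 38.7 and 20.1 CPM.

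Depth changes how many cells show a UMI at all, so cells were also thinned to 5000 UMIs each. A Prox1 UMI was then expected in 17.95% of 59 control venous-like cells (9.18 to 30.1) and in 28.5% of 124 Flcn iΔEC cells (20.7 to 37.3), whose intervals overlap. Without thinning the shares were 54.1% and 60.0%. Arterial-like cells, which should lack Prox1, had thinned shares of 1.41% and 1.26%, and lymphatic-like cells 87.6% and 79.8%. The share of venous-like cells with Prox1 was above the arterial background in both libraries, and a difference of that share between the libraries was not detectable at this depth. What differed was the amount per class.

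Outside the venous-like and lymphatic-like classes Prox1 came from few cells. In capillary-like cells the top 3 control cells held 65.2% of its UMIs and the top 3 Flcn iΔEC cells 88.6%, and the top 3 high endothelial-like cells of the latter 63.1%. At least 100 CPM with at least 2 UMIs was reached by 7 control and 4 Flcn iΔEC capillary-like cells. Of these, 5 and 4 also had a UMI of Tbx1 or Foxp2. No arterial-like cell met both conditions in either library, 0 of 83 and 0 of 97. The unassigned cells held more Prox1 than the venous-like class, 126 and 234 CPM. Both conditions were met by 26 of 99 and 66 of 144 unassigned cells.

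Nr2f2 (ENSMUSG00000030551, chr7:70351944-70366735), the receptor that marks veins and partners Prox1, was shared by venous-like and lymphatic-like cells. In the control it stood at 462 CPM (430 to 496) in venous-like and 395 CPM (363 to 428) in lymphatic-like cells, and in the Flcn iΔEC library at 304 CPM (287 to 322) and 354 CPM (342 to 366). The order of the classes was thus turned round, with venous-like cells first in the control and lymphatic-like cells first in the Flcn iΔEC library, and neither pair overlapped. The ratio of Flcn iΔEC to control was 0.658 in venous-like cells (0.601 to 0.721) and 0.895 in lymphatic-like cells (0.819 to 0.980). The venous-like ratio stayed below 1 in each of 15 alternatives, whereas the lymphatic-like one turned to 0.30 (log2) with Leiden classes. Capillary-like cells had 97.5 and 111 CPM, high endothelial-like cells 95.4 and 132 CPM, and arterial-like cells 9.38 and 5.43 CPM. After thinning, Nr2f2 was in 89.0% and 76.1% of venous-like cells.

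Nr2f2 and Prox1 in the same cell were common in the lymphatic-like class and less so in the venous-like class. After thinning both were expected in 70.4% of control and 62.5% of Flcn iΔEC lymphatic-like cells, and in 16.0% and 22.0% of venous-like cells. In all 4 groups this was what independent detection would give, with ratios of 0.996, 0.999, 0.9998 and 1.02. Nr2f2 thus did not mark out the Prox1 cells of a class, as nearly every venous-like cell had it.

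The factors known from valves and from the control of Prox1 divided into those shared with arteries and those that were not. Gata2 (ENSMUSG00000015053, chr6:88193891-88207032), a zinc finger factor needed in lymphatic valves, was highest in arterial-like cells, at 159 CPM (139 to 180) in the control and 155 CPM (139 to 172) in the Flcn iΔEC library. Lymphatic-like cells had 107 and 80.9 CPM, venous-like cells 70.2 CPM in both libraries, capillary-like cells 44.6 and 60.8 CPM, and high endothelial-like cells 21.3 and 48.5 CPM. Gata2 was level between the libraries in venous-like cells, at a ratio of 1.0 (0.803 to 1.25), and in arterial-like cells, at 0.975 (0.824 to 1.15). It was lower in Flcn iΔEC lymphatic-like cells, at 0.759 (0.638 to 0.908).

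Foxc1 (ENSMUSG00000050295, chr13:31806633-31812476) and Foxc2 (ENSMUSG00000046714, chr8:121116171-121118895) are forkhead relatives, and Foxc2 is the best known regulator of lymphatic valves. Foxc1 leaned to veins: in the control it stood at 111 CPM in venous-like, 61.5 CPM in lymphatic-like and 36.9 CPM in arterial-like cells, and at 2.09 CPM or under in the remaining classes. The same classes of the Flcn iΔEC library had 77.5, 27.9 and 61.6 CPM. Foxc1 was thus lower in Flcn iΔEC lymphatic-like cells, at 0.453 times the control (0.355 to 0.582), and in venous-like cells, at 0.698 (0.580 to 0.842), but higher in arterial-like cells, at 1.67 (1.21 to 2.33).

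Foxc2 leaned to the lymphatic side. In the control it stood at 166 CPM (146 to 188) in lymphatic-like cells, against 29.4 CPM in venous-like and 28.1 CPM in arterial-like cells. Lymphatic-like cells of the Flcn iΔEC library had 52.2 CPM (47.7 to 57.0), 0.314 times the control (0.269 to 0.368). In venous-like cells 21.7 CPM against 29.4 CPM was within counting error, at 0.739 (0.515 to 1.07). In capillary-like cells Foxc2 had 22 counts in the control, 18 of them in 3 cells, and 0 counts in 45 Flcn iΔEC cells, so that no difference is read.

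Nfatc1 (ENSMUSG00000033016, on chromosome 18), a calcineurin-dependent factor that works with Prox1 and Foxc2 in valves, was the member most like Prox1 over the classes. In lymphatic-like cells it stood at 266 CPM (241 to 294) in the control and 328 CPM (317 to 340) in the Flcn iΔEC library. Prox1 went the other way there, at 670 and 436 CPM, a direction that depended on how the cells were grouped. In venous-like cells Nfatc1 stood at 43.2 CPM (33.8 to 54.4) and 150 CPM (138 to 162), 3.46 times higher (2.71 to 4.49). The remaining classes had between 30.2 and 49.5 CPM in both libraries. In the control the 4 non-lymphatic classes overlapped from neighbour to neighbour, while in the Flcn iΔEC library venous-like cells lay apart from the other three.

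Unlike Prox1, the higher Nfatc1 was spread over much of the venous-like class. The median venous-like cell had 22.7 CPM in the control and 99.4 CPM in the Flcn iΔEC library, and 6 of 61 (9.84%) and 61 of 125 cells (48.8%) reached 100 CPM with at least 2 UMIs. After thinning, Nfatc1 was expected in 18.6% of control (9.68 to 30.9) and 42.2% of Flcn iΔEC venous-like cells (33.4 to 51.4), intervals that do not overlap. Without the 3 cells of most UMIs the levels were 37.6 and 136 CPM.

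Hhex (ENSMUSG00000024986, chr19:37434810-37440731) was the factor lower in the Flcn iΔEC library most widely. In the control it stood at 161 CPM in arterial-like, 128 CPM in lymphatic-like, 117 CPM in venous-like, 63.4 CPM in capillary-like and 40.7 CPM in high endothelial-like cells. The Flcn iΔEC levels in the same order were 64.3, 40.2, 64.5, 38.3 and 50.1 CPM. The ratio was below 1 beyond counting error in 4 of the 5 classes: 0.398 in arterial-like (0.321 to 0.492), 0.313 in lymphatic-like (0.262 to 0.375), 0.551 in venous-like (0.456 to 0.667) and 0.604 in capillary-like cells (0.395 to 0.904). The high endothelial-like class did not share this, with levels that overlap. The classes that were widely spread in the control lay between 38.3 and 64.5 CPM in the Flcn iΔEC library, where all neighbours overlapped.

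Tbx1 (ENSMUSG00000009097, chr16:18580979-18590671) and Foxp2 (ENSMUSG00000029563, chr6:14901349-15441977) had the lowest levels in venous-like cells among the members. Tbx1, a T-box factor needed for lymphatic growth, stood at 180 CPM (159 to 203) and 233 CPM (223 to 243) in lymphatic-like cells. In venous-like cells it had 0 counts in the control and 10 counts, 2.50 CPM, in the Flcn iΔEC library, spread over 6 cells, of which 5 also had a Prox1 UMI. Foxp2, a forkhead factor reported in collecting lymphatic vessels, stood at 207 CPM (184 to 232) and 64.6 CPM (59.5 to 69.9) in lymphatic-like cells, and had 0 and 2 counts in venous-like cells, the latter in 2 cells that both had Prox1. In the control the lymphatic-like level was at least 100-fold higher than the venous-like level for Tbx1 and at least 115-fold higher for Foxp2, taking 3 counts over the class as the floor. With the same floor, 0 counts in the 61 control venous-like cells allow a share of up to 4.92% of cells with a UMI.

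The pair parted between the libraries within lymphatic-like cells. Foxp2 was lower in the Flcn iΔEC library, at 0.312 times the control (0.271 to 0.359), and Tbx1 was higher, at 1.29 (1.14 to 1.47). The median cell had 153 and 50.7 CPM of Foxp2, and 175 and 219 CPM of Tbx1.

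The members past 2-fold were counted with all genes as the background. Genes entered with at least 50 counts over both groups, and 1 count was added to each. In lymphatic-like cells all 9 members entered, 0 passed 2-fold upward and 4 passed downward (Foxc1, Foxc2, Hhex and Foxp2), where 3.83% and 6.98% of 9979 genes passed upward and downward. The median log2 ratio was −0.62 over the members and −0.22 over all genes. In venous-like cells 7 members entered, since Tbx1 and Foxp2 had too few counts; 2 passed upward (Prox1 and Nfatc1) and 0 downward, where 2.68% and 4.07% of 8804 genes did. The median log2 ratio there was −0.45 over these members and −0.09 over all genes. In arterial-like cells 5 entered, and 0 passed upward and 1 downward (Hhex), where 2.13% and 4.56% of 7406 genes did. In high endothelial-like cells 5 entered, with 2 upward (Prox1 and Gata2) and 0 downward, where 3.45% and 1.74% of 7746 genes passed; 63.1% of the Prox1 UMIs of the Flcn iΔEC cells there sat in 3 cells. In capillary-like cells 5 entered and 0 passed in either direction, where 3.18% and 3.64% of 6217 genes did.

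The same count was made between the classes within each library. In the control 5 of 9 members were past 2-fold higher in lymphatic-like than in venous-like cells (Prox1, Foxc2, Nfatc1, Tbx1 and Foxp2) and 0 were past 2-fold lower, where 7.14% and 7.96% of 7460 genes were. In the Flcn iΔEC library these 5 were again past 2-fold higher and 1 was past 2-fold lower (Foxc1), where 7.72% and 8.9% of 10492 genes were. The ratios of Prox1, Foxc2 and Nfatc1 were smaller in the Flcn iΔEC library: Foxc2 stood at 5.65 times the venous-like level in the control and 2.40 times in the Flcn iΔEC library, and Nfatc1 at 6.17 and 2.19 times. For Prox1 and Nfatc1 the venous-like level was the one that differed most between the libraries, and for Foxc2 it was the lymphatic-like level.

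**Figure D3:**
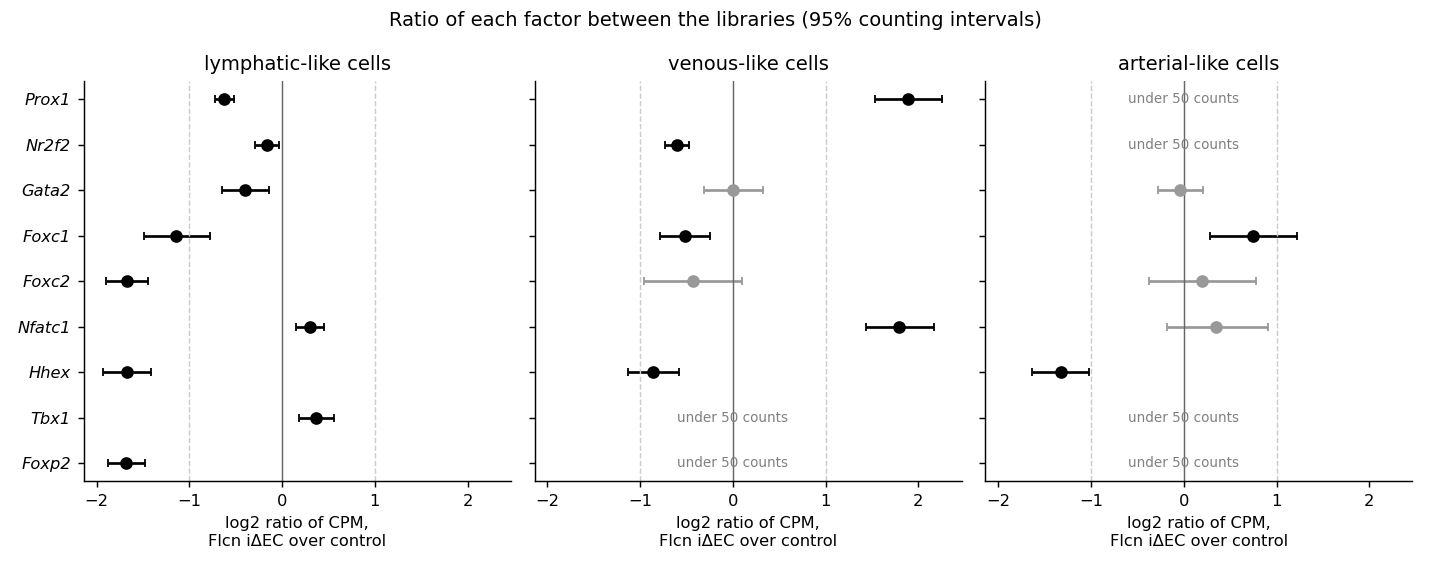
Ratio of the Flcn iΔEC over the control level of the factors in lymphatic-like, venous-like and arterial-like cells. The axis is on the log2 scale, with exact 95% counting intervals. Factors with too few counts in a class have no point. In venous-like cells Prox1 (3.69 times) and Nfatc1 (3.46 times) lie above 1, and Hhex lies below 1 in all of these classes.

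The venous-like class was then split by the Prox1 of each cell. In the Flcn iΔEC library 50 cells had no Prox1 UMI, 40 had a low level and 35 had 100 CPM with at least 2 UMIs, with medians of 15364, 39426 and 39121 UMIs, so that cells without a UMI were also the shallower ones. Nfatc1 stood at 80.8, 117 and 238 CPM over these groups, 2.94 times higher in the last than in the first (2.32 to 3.77). Nr2f2 stood at 303, 292 and 318 CPM, Gata2 at 71.5, 66.6 and 73.1 CPM, and Hhex at 59.5, 60.0 and 73.1 CPM, so these did not differ with Prox1 beyond counting error. Foxc1 stood at 64.1, 78.5 and 86.5 CPM and Foxc2 at 15.8, 23.7 and 24.1 CPM, where the intervals of the ratio of last to first also held 1.

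Co-detection gave the same picture with depth held equal. Of the 124 thinned Flcn iΔEC venous-like cells, 20.3 were expected to show Prox1 and Nfatc1 together, against 14.9 if the genes were independent. Nfatc1 was in 57.4% of cells with Prox1 and in 36.2% of cells without it. For Nr2f2, Gata2, Foxc1, Foxc2 and Hhex the same ratio of joint to independent detection lay between 1.01 and 1.09. In the control it was 1.12 for Nfatc1, on 2.22 expected joint cells, too few to read.

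Nfatc1 was higher also where Prox1 was not detected. In venous-like cells with no Prox1 UMI it stood at 34.3 CPM in 28 control cells and 80.8 CPM in 50 Flcn iΔEC cells, 2.35 times (1.41 to 4.16). In cells with low Prox1, at 48.0 and 46.2 CPM in the libraries, it stood at 44.9 and 117 CPM, 2.60 times (1.86 to 3.70). In the same cells without a Prox1 UMI Nr2f2 was at 0.687 times the control (0.579 to 0.817) and Hhex at 0.588 (0.402 to 0.863). The lower Nr2f2 and Hhex of the class were thus present in cells in which no Prox1 was seen.

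The lymphatic markers did not all go with Prox1 in venous-like cells. The 8 lymphatic markers helped to place the cells, so a cell rich in them would tend to be unassigned or lymphatic-like. Low levels of them here were thus in part fixed by the class rule. No lack of them in Prox1-rich venous cells is read. In the 35 Flcn iΔEC cells Lyve1 stood at 2.84 CPM against 2.79 CPM in cells without a Prox1 UMI, Flt4 at 25.5 against 30.7 CPM, and Pdpn at 0 counts in both. Mmrn1 stood at 6.38 against 1.86 CPM, Pard6g at 7.80 against 5.57 CPM and Reln at 10.6 against 6.503 CPM, with overlapping intervals, Reln being in 11 of 35 and 3 of 50 cells. In cells with low Prox1 Flt4 stood at 28.4 CPM (20.5 to 38.2) in the Flcn iΔEC library against 9.19 CPM (4.20 to 17.5) in the control. The 8 lymphatic markers summed to 163, 237 and 419 CPM over the 3 groups, of which Fxyd6 alone made up 111, 181 and 360 CPM. Cldn11, a claudin found at lymphatic valves, stood at 52.0, 83.1 and 194 CPM. Itga9, another valve gene, stood at 29.7, 29.0 and 41.8 CPM, and its ratio of last to first held 1 (1.41, 0.901 to 2.24). Aplnr, the apelin receptor of veins, stood at 302, 264 and 165 CPM. The venous marker Vwf stood at 1346 CPM in cells without a Prox1 UMI and 1200 CPM in the Prox1-rich cells. Over the same groups of the control Aplnr fell as well, at 780, 530 and 484 CPM, whereas Vwf rose, at 2089, 2934 and 3357 CPM. In the control the 7 Prox1-rich cells had 110 CPM of Cldn11 against 57.2 CPM, and Hhex at 208 against 101 CPM (2.06 times, 1.30 to 3.23) and Foxc2 at 67.4 against 26.7 CPM (2.52 times, 1.04 to 5.98). The Hhex ratio of the Flcn iΔEC cells was 1.23 (0.891 to 1.71), and the difference between the libraries was not tested.

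**Figure D4:**
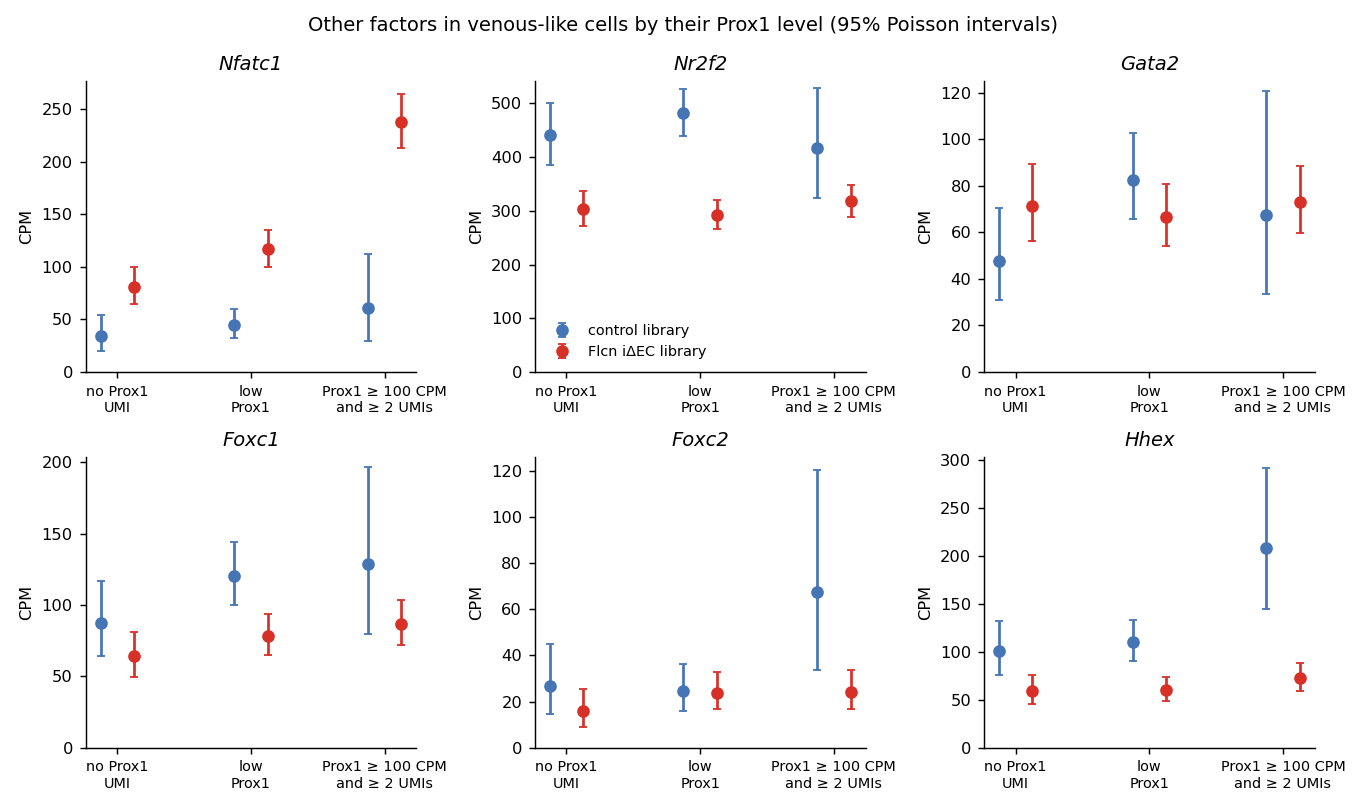
Levels of Nfatc1, Nr2f2, Gata2, Foxc1, Foxc2 and Hhex in venous-like cells split by the Prox1 of each cell (no UMI, low, and 100 CPM or more with at least 2 UMIs), for each library, in CPM with exact 95% counting intervals. Nfatc1 goes from 80.8 to 238 CPM across the groups of the Flcn iΔEC library, while Nr2f2 stays between 292 and 318 CPM.

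A further group was seen almost entirely in the Flcn iΔEC library. Cells with at least 300 CPM of H19 and 100 CPM of Meg3, imprinted long noncoding RNAs, numbered 44 of 892 endothelial cells (4.93%) there and 1 of 566 in the control. Of the 44, 28 were unassigned, 8 venous-like and 3 lymphatic-like, while 3 scored highest for blood and 2 for mesenchymal markers. In the Leiden grouping 30 of the 44 fell in a cluster of 0 control and 48 Flcn iΔEC cells, with 502 CPM of Prox1. That cluster was named mesenchymal at a mean score of −0.14, so it lay outside the venous and lymphatic Leiden classes. The 41 of the 44 outside the lymphatic-like class had 407 CPM of Prox1 (376 to 440), 355 CPM of Nfatc1 (326 to 386) and 312 CPM of Nr2f2 (285 to 341). Their Prox1 and Nfatc1 lay in the range of lymphatic-like cells of the same library, 436 and 328 CPM, while Foxp2 stood at 3.21 CPM and Tbx1 at 29.5 CPM, against 64.6 and 233 CPM there. Gata2 stood at 106, Foxc2 at 68.6, Foxc1 at 66.1 and Hhex at 71.8 CPM, and Aplnr at 48.1 CPM. These cells were picked by H19 and Meg3, not by a member. The choice of these 2 genes was made with earlier results of the same libraries known. In the control H19 stood at 1200 and 496 CPM in lymphatic-like cells with Lyve1 at 100 CPM or more and below it. Meg3 stood at 0 and 40.3 CPM there. Control venous-like cells without a Prox1 UMI had 0 CPM of H19 and 296 CPM of Meg3. Flcn iΔEC venous-like cells without a Prox1 UMI had 57.6 CPM of H19 and 234 CPM of Meg3, and Prox1-rich ones 158 and 572 CPM. The pick was thus not independent of Prox1.

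Lymphatic-like cells were split by Lyve1, which marks lymphatic capillaries and is low in collecting vessels. At 100 CPM or more there were 30 control and 145 Flcn iΔEC cells, and below it 36 and 182, with 2 and 30 cells between 50 and 200 CPM. In the control the Lyve1-low cells had more Foxc1 (5.34 times, 2.95 to 10.49), Foxp2 (2.74 times, 2.10 to 3.61), Gata2 (2.53 times, 1.76 to 3.71) and Foxc2 (2.19 times, 1.65 to 2.92), and less Nr2f2 (0.759, 0.642 to 0.896). Prox1 hardly differed, at 706 against 631 CPM (1.12 times, 0.984 to 1.27).

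That contrast was flatter in the Flcn iΔEC library for most of these factors. Foxc1 was 1.51 times, Foxp2 1.20 times, Gata2 1.82 times and Foxc2 1.27 times higher in Lyve1-low cells, and Prox1 1.54 times (1.44 to 1.64). The difference between the libraries was accordingly larger in Lyve1-low cells: Foxp2 stood at 70.3 against 296 CPM, Foxc2 at 58.1 against 224 CPM, Hhex at 34.5 against 138 CPM and Foxc1 at 33.3 against 100.1 CPM. In Lyve1-high cells Foxp2, Foxc2 and Hhex were lower as well, at 0.541, 0.448 and 0.393 times, whereas Foxc1 was at 1.18 times with an interval from 0.656 to 2.28. The higher Tbx1 was seen in Lyve1-low cells, at 1.67 times (1.38 to 2.04), while in Lyve1-high cells the ratio was 0.988 (0.829 to 1.18); the difference between them was not tested. Prox1 was lower in both parts, at 0.540 times in Lyve1-high and 0.742 times in Lyve1-low cells.

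**Figure D5:**
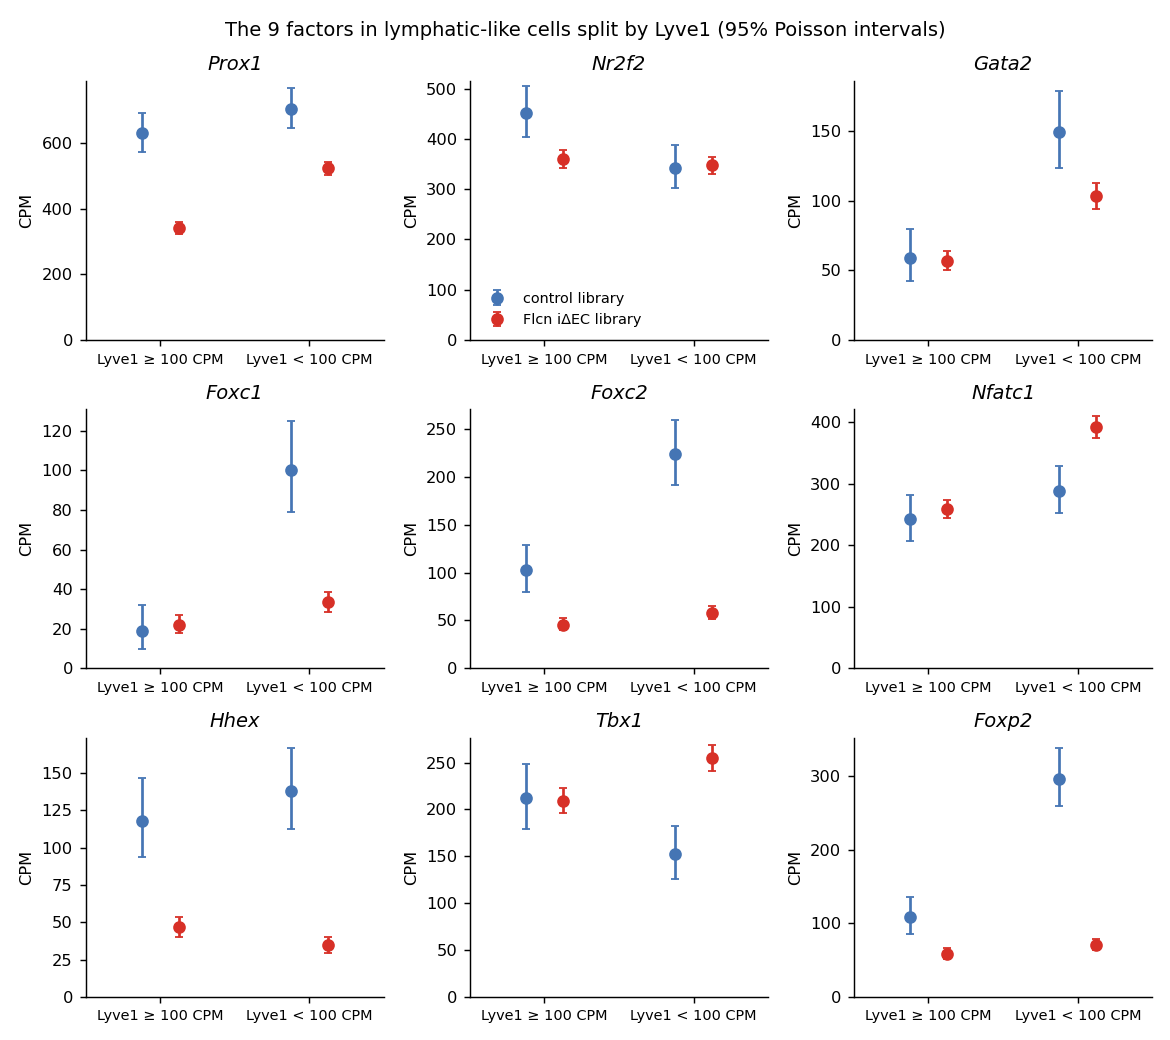
Levels of the 9 factors in lymphatic-like cells with Lyve1 at 100 CPM or more and below it, by library, in CPM with exact 95% counting intervals. In the control Foxc1, Foxc2, Gata2 and Foxp2 are higher in Lyve1-low cells, and the Flcn iΔEC values lie closer together.

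How many of the 9 factors a cell showed followed the class. After thinning a lymphatic-like cell showed 5.04 members on average in the control and 4.11 in its Flcn iΔEC counterpart, a venous-like cell 2.49 and 2.42, an arterial-like cell 1.497 and 1.37, a capillary-like cell 1.08 and 1.13, and a high endothelial-like cell 0.968 and 1.32. Within lymphatic-like cells joint detection with Prox1 was near that of independent genes for every member, with ratios between 0.925 and 1.04 in both libraries. The share with Prox1 and Foxp2 together was 45.1% of control and 22.3% of Flcn iΔEC cells, with Prox1 and Foxc2 41.3% and 17.0%, and with Prox1 and Tbx1 52.7% and 53.5%.

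Over the 10 groups of 5 classes and 2 libraries, whose points share libraries and depth, the log levels of some members ran together as a description. Prox1 had a Pearson r of 0.90 with Nfatc1 and 0.86 with Nr2f2, Tbx1 of 0.91 with Foxp2, and Foxc1 of 0.80 with Foxc2, while Prox1 had −0.05 with Gata2 and −0.10 with Hhex. Among all genes with enough counts the pattern most like that of Prox1 was that of Bik (0.98), followed by Carhsp1 (0.97) and Gm9844, Cd302 and Fxyd6 (each 0.96), the last of which served as a lymphatic marker. The genes most like Nfatc1 were Dapk1 (0.99) and Manbal (0.98), those most like Foxp2 Slc45a3 (0.996) and Nrcam (0.99), and those most like Tbx1 Pdpn (0.97), also a marker, and Cox6a1 (0.97). For Nr2f2 they were Mast2 and Tshz2, for Gata2 Wwp1 and Fgd4, for Foxc1 Pir and Fndc1, for Foxc2 Paip1 and Polr2k, and for Hhex Ing1 and 4930579G24Rik, at r of 0.95 to 0.97. Slc45a3 followed Foxp2 in both libraries, at 232 and 88.3 CPM in lymphatic-like cells and at 0.75 CPM or under in venous-like cells.

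Fixed lists of related genes gave the setting, and their counts stand beside the shares of all genes given above. Of 13 close relatives of the members, 8 entered in lymphatic-like cells. There 1 passed 2-fold upward, Gata3, with 0 against 51 counts, which entered only through its Flcn iΔEC counts and so is not read as a change, and 1 downward, Nr2f1, a sister of Nr2f2, at 28.0 against 12.8 CPM in the Flcn iΔEC library. In venous-like cells 9 entered, with 0 upward and 1 downward, Gata6, at 180 against 82.0 CPM. Of 14 factors placed around Prox1 in lymphatic development, 12 entered in lymphatic-like cells, with 0 upward and 2 downward, Sox7 (42.4 against 14.8 CPM) and Erg (114 against 46.1 CPM). In venous-like cells 13 entered and 0 passed either way. The most counted genes of these lists were Foxp1, a forkhead relative of Foxp2, Klf2, a factor that responds to blood flow, and Lmo2, an adaptor of blood and endothelial factors. Foxp1 stood at 906 and 678 CPM in venous-like and 524 and 391 CPM in lymphatic-like cells. Klf2 stood at 1723 and 934 CPM in venous-like but 1265 and 1512 CPM in lymphatic-like cells, and Lmo2 at 416 and 438 CPM and at 575 and 666 CPM.

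Of the MiT/TFE factors and Flcn, 3 of 5 entered in lymphatic-like and in venous-like cells. In lymphatic-like cells 0 passed upward and 1 downward, Tfeb, at 79.9 CPM in the control and 33.9 CPM in the Flcn iΔEC library, and in venous-like cells 0 passed. Tfe3 itself stood at 30.6 and 27.5 CPM in venous-like cells. Of 12 genes of lymphatic and venous valves, 11 entered in lymphatic-like cells with 1 upward and 4 downward. Upward was Angpt2, a ligand of Tie2, at 48.5 against 249 CPM, and downward were the connexin Gja4 (516 against 47.0 CPM), Bmp4 (69.0 against 13.2 CPM), Fn1 (976 against 360 CPM) and Nrp2 (498 against 229 CPM). In venous-like cells 10 entered, with 2 upward, Angpt2 (7.80 against 21.0 CPM) and Lama5 (9.001 against 18.99 CPM), and 1 downward, Nrp2 (308 against 152 CPM). The connexin Gja1 stood at 471 and 291 CPM in lymphatic-like and 6.60 and 8.25 CPM in venous-like cells.

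Other measures differed between the libraries as well, and their part in the results was not tested. In venous-like cells the median summed level of the mesenchymal markers was 181 CPM in the control and 14.1 CPM in the Flcn iΔEC library, and that of the capillary markers 353 and 137 CPM. Blood markers stood at 28.0 and 64.8 CPM over the lymphatic-like class. Cells with a Mki67 UMI made up 18.2% and 12.8% of lymphatic-like cells but a like share of venous-like cells, 23.0% and 22.4%, and without them the venous-like Prox1 ratio was 1.499 on the log2 scale. Without venous-like cells that had any UMI of Lyve1, Pdpn, Ccl21a or Mmrn1 it was 1.48. Venous markers were themselves lower in Flcn iΔEC venous-like cells, as given above, and the depth of the endothelial cells was higher. Prox1os, annotated on the strand opposite to Prox1, had 4 and 60 counts in lymphatic-like cells (2.73 and 6.41 CPM) and 0 and 4 in venous-like cells.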

How the data were processed

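Single-cell 3′ libraries of mesenteric CD31+ cells at P8 were made by the authors, 1 for the control and 1 for the KO (Flcn iΔEC) genotype. The deposited values are raw UMI counts per gene and cell, not normalized, and the submitters' processing notes name Cell Ranger 3.0 and mm10. No column of other samples was present. Groups came from the sample titles.

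Genes were matched to GENCODE vM21 (GRCm38, the same assembly as mm10) by ID, which 28416 of 28692 had. Cells with at least 2 Cdh5 UMIs were scored for 7 marker lists as the mean z-score of log counts per 10000 UMIs and given the highest list, or left unassigned where the top scores lay within 0.25. Counts were summed per class and library and written as CPM with exact Poisson intervals, ratios carried exact conditional binomial intervals, and shares Clopper-Pearson intervals, all at 95%. Intervals and floors (3 counts) cover counting error only. Shares were also computed as expectations after thinning each cell to 5000 UMIs, leaving out shallower cells (2 and 1 of the venous-like, 2 and 0 of the lymphatic-like). Fold counts used genes with at least 50 summed counts and 1 added count. With 1 library a group no count model was fitted. Likeness to a member was Pearson's r of log2(CPM + 1) over 10 groups of class and library.

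The text names all 9 members and, from fixed lists, the genes past 2-fold in either class and up to 2 a list with the most counts; likeness gives 5 genes for Prox1 and 2 for each other member. Genes named outside that rule were chosen after their values were seen or as markers. They are Aplnr, Vwf, Lyve1, Flt4, Pdpn, Fxyd6, H19, Meg3, Glycam1, Madcam1, Ccl21a, Mki67, and Cldn11 and Itga9 by Prox1 level. The members and lists were chosen with earlier results of these data known. Alternatives changed the score margin, scaling and clustering, the Cdh5 minimum, doublets, the thinning depth, the fold and the cells of a class. Steps were tested on simulated data. Python 3.11.15, numpy 2.4.6, scipy 1.17.1, pandas 2.3.3, scanpy 1.11.5 and matplotlib 3.10.9 were used.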

Additional observations from a re-analysis of the deposited data

Results flagged for a closer look

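Prox1 differed between the libraries in opposite directions in the classes that express it most. Its log2 ratio of Flcn iΔEC over control was 1.88 in venous-like cells and −0.62 in lymphatic-like cells, each beyond its counting interval. This difference between the classes was not tested, since each genotype is 1 library, and the lymphatic-like direction depended on how the cells were grouped, as given below.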

How the results depend on the processing

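Of 364 alternative values over all results, 306 lay within the counting interval of the reported value, 53 lay outside it in the same direction or without a call, and 5 turned round. The cause was not tested for any of them. For the venous-like Prox1 log2 ratio (1.88) the values outside were 0.96 with a margin of 0.5, 1.48 without cells with a UMI of Lyve1, Pdpn, Ccl21a or Mmrn1, 2.39 with unassigned cells rich in H19 and Meg3 added, and 1.499 without Mki67 cells. For the lymphatic-like ratio (−0.62) they were −0.89 with Lyve1 at 100 CPM or more, −0.43 below it, −0.72 without Mki67 cells and 0.13, turned round, with Leiden classes, which named no high endothelial cluster. The lymphatic-over-venous Prox1 log2 ratio in the control (3.96) was 3.54 with a margin of 0.5 and 2.79 with Leiden classes. In the Flcn iΔEC library (1.45) it was 1.12 with no margin, 1.87 with a margin of 0.5, 1.32 with Leiden classes, 1.74 without cells with a UMI of the 4 lymphatic genes, 1.10 and 1.72 in Lyve1-high and Lyve1-low cells, 0.94 with the H19 and Meg3 cells added, 1.80 without Mki67 cells and 1.82 as a mean over cells. Members past 2-fold numbered 1 with a margin of 0.5 and 4 at 1.5-fold in venous-like cells (2), and 2 in Lyve1-high lymphatic-like cells (4). The share of venous-like cells with Prox1 was 7.496% and 16.3% at 2000 UMIs, 54.1% and 60.0% unthinned, and 38.9% in the Flcn iΔEC library with the H19 and Meg3 cells added. In lymphatic-like cells Nr2f2 (−0.16) turned to 0.30 with Leiden classes and 0.019 in Lyve1-low cells, and Foxc1 (−1.14) to 0.23 and Tbx1 (0.37) to −0.018 in Lyve1-high cells. Alternatives added after the data were seen were the Lyve1 split, the H19 and Meg3 cells, the Mki67 cells and the mean over cells. With classes of 29 to 327 cells, levels of a few CPM rest on a few UMIs. No paired analysis was possible because each genotype has 1 library and the labels share no replicate number.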

Other observations

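Outside the endothelium, in cells with no Cdh5 UMI grouped by fixed markers, several factors had a level of their own. Nfatc1, which acts in lymphocyte activation, had 51.4 CPM in the 2446 T and innate lymphoid cells of the control and 38.0 CPM in the 1017 of the Flcn iΔEC library, and at 83.7 and 52.7 CPM in 2390 and 1349 B cells. Hhex, a factor of early B cells, stood at 81.2 and 88.3 CPM in B cells and at 55.4 and 65.0 CPM in myeloid cells, but at 2.55 and 2.66 CPM in T and innate lymphoid cells. Hhex was lower in the Flcn iΔEC library in cells without Cdh5 that no list placed, at 59.98 CPM (54.1 to 66.3) and 25.5 CPM (21.9 to 29.5). In neutrophils Hhex stood at 128 CPM (86.3 to 183) and 12.5 CPM (2.58 to 36.5), from 30 and 3 UMIs. These UMIs sat in 17.9% of 28 control and 13.0% of 23 Flcn iΔEC neutrophils. The levels thus rest on a few cells, and no difference is read. Gata2, a mast cell factor, had 110 CPM in 30 mast cells of the control and 218 CPM in 21 of the Flcn iΔEC library, from the 13.3% and 23.8% of these cells with a UMI. Nr2f2 stood at 228 and 279 CPM in 72 and 71 mesenchymal cells, and Foxp2 at 32.6 and 24.7 CPM, the highest level of Foxp2 outside lymphatic-like cells.

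Prox1 stood at 0.60 to 3.61 CPM in T and innate lymphoid, B and myeloid cells, a level close to that of arterial-like cells. In the 28 control neutrophils it had 14 UMIs (59.7 CPM), all in 1 cell (3.57%), and in the 23 Flcn iΔEC neutrophils 0 UMIs.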
